A study of Mus musculus with 4 samples.

Results

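Granzyme C-high NK cells were natural killer (NK) cells from mouse gliomas in which Gzmc, Gzmd and Gzmf together had 5 or more unique molecular identifiers (UMIs, tags that each count 1 captured RNA molecule). The study sorted live CD45+ leukocytes from tumor-bearing hemispheres of C57Bl/6 mice 14 days after implantation of CT2a, a mouse glioma line, and sequenced their RNA cell by cell on the 10x Genomics platform. One group of 4 mice was wild type (labelled CaMKK2 WT, here WT) and the other 4 carried a germline knockout of Camkk2 (labelled CaMKK2 KO), so the gene was removed from every host cell and not from one cell type. The labels used here give no ages and name no drug treatment. Each genotype was run in a single 10x channel with its 4 mice told apart by antibody hashtags, so genotype and channel cannot be told apart, and the same hashtag number named different mice in the 2 genotypes.

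The cells were chosen by their measured UMIs, as barcodes with 500 or more detected genes, under 10% mitochondrial UMIs, 2 or more UMIs of Ncr1 and Klrb1c (NKp46 and NK1.1, the receptors that define NK cells in this strain), under 2 of the T cell genes Cd3d, Cd3e and Trac, under 30 of the macrophage genes C1qa, C1qb and C1qc, and 5 or more of the 3 granzymes. Of 13960 barcodes, 1523 passed the NK cell limits and 504 of these were granzyme C-high (258 WT, 246 CaMKK2 KO). The other 1019 NK cells are called granzyme C-low below. A single hashtag was assigned to 460 high cells, and the other 44 carried more than one mouse's tag and were left out of every value given by mouse. The WT mice gave 35, 59, 56 and 79 high cells and the CaMKK2 KO mice gave 43, 47, 130 and 11, so that 130 of the 231 CaMKK2 KO cells came from mouse 3 and very few from mouse 4. The WT and CaMKK2 KO libraries shared 42 barcodes, of which 4 were granzyme C-high in one library and none in both. High cells were deeper than low cells, with a median of 20943.5 UMIs and 4092.5 genes against 5779 UMIs and 2139 genes. Summed by mouse, the high cells held 229080 to 2970347 UMIs and the low cells 550800 to 1348431. The labels call the mice biological replicates but give no litters or days, and p-values below measure the spread between these mice.

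NK cells kill by releasing granules that hold perforin, which opens the target membrane, and granzymes, serine proteases that enter through it. Granzyme B cleaves after aspartate and triggers apoptosis, and granzyme A is a tryptase. The mouse carries a further set of closely related granzymes, C, D, E, F and G, beside the granzyme B gene. They are known mainly from NK and T cells that have been driven for some time by IL-2 or IL-15, whereas resting NK cells hold granzymes A and B.

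The genes behind the rule lie side by side on chromosome 14, all on the minus strand (mm10, GENCODE annotation of GRCm38). From low to high coordinate the order was Gzme (56117626 to 56120625), Gzmd (56129556 to 56132608), Gzmg (56156582 to 56159579), Gzmn (56165797 to 56174599), Gzmf (56205263 to 56211417), Gzmc (56231441 to 56234656) and Gzmb (56258838 to 56262260). Gzma is on chromosome 13 and Prf1 (perforin) on chromosome 10. The promoters are printed because the rule rests on Gzmc, Gzmd and Gzmf, while their neighbour Gzmb was abundant in both classes of NK cell. Each line runs 5′ to 3′ on the gene's strand from 200 to 21 bases before its start (RefSeq, GRCm38.p6), and capitals mark a 20-base run shared by Gzmc, Gzmd, Gzme, Gzmf and Gzmg, a RUNX motif (TGTGGTT), a cAMP response element or CRE (TGACGTCA) and an AP-1 motif (TGANTCA), each searched on both strands.
Gzmc, chr14:56234678-56234857: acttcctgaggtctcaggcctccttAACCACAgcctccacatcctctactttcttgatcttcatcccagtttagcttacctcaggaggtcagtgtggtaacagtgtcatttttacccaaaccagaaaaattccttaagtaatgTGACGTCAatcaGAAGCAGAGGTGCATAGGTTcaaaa
Gzmf, chr14:56211428-56211607: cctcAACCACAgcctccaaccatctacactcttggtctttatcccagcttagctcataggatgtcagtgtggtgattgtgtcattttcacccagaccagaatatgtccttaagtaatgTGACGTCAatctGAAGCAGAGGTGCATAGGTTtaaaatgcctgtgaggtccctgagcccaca
Gzmd, chr14:56132614-56132793: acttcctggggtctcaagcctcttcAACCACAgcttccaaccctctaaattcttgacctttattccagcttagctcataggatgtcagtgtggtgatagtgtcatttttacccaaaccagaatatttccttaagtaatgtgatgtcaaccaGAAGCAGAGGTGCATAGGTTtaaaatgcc
Gzmb, chr14:56262355-56262534: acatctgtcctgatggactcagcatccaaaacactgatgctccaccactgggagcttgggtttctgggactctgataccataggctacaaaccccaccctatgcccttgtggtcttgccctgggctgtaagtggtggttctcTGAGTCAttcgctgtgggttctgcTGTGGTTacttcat

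The shared run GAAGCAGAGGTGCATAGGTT began 45 to 70 bases before the start of Gzmc, Gzmd, Gzme, Gzmf and Gzmg and was found in 5 of 32851 promoter windows, all of them from these genes. Over the 250 bases before the start, which were also the bases searched for the run and the motifs, Gzmc was 80.5% identical to Gzmd. It was 70.2% identical to Gzmf and 47.5% to Gzmb. The CRE was present in Gzmc, Gzmf and Gzmg and in 1.546% of all promoters, the RUNX motif in Gzma, Gzmb, Gzmc, Gzmd, Gzme, Gzmf and Gzmg (4.396% of all) and the AP-1 motif in Gzmb (6.749% of all). The T-box motif GGTGTGA (3.333% of all), the GAS motif TTCNNNGAA (7.02%) and the ETS motif CCGGAAGT (2.877%) were in none of these promoters, the NFAT motif GGAAAA (20.43%) was in Gzma, TATAAA (12.37%) in Gzmn and the E-box CANNTG (66.22%) in 6 of them and in Prf1. None of the marked motifs overlapped another. A match of letters is a description of the sequence and not a bound site. In the last 500 bases of the transcripts, from which these 3′ tags come, stretches of 91 bases were shared between Gzmd and Gzme at 6 of 410 positions (1.46%) and between no other pair, so that the counts of Gzmd and Gzme carry a small uncertainty.

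The label was checked against markers. All 12 NK cell markers were detected in the high cells. Ncr1 (275 CPM, CPM being UMIs scaled to a common library size, mean of 8 mice) was counted by the rule together with Klrb1c, so its detection is no check. Markers that the rule did not use included Klrd1 (815 CPM), Nkg7 (1333 CPM) and Eomes (212 CPM), the transcription factor that separates NK cells from type 1 innate lymphoid cells (ILC1). Cd3d (4.75 CPM) and Trac (5.17 CPM), both limited by the rule, were near the floor, as was Cd8a (2.58 CPM), which it did not use. Trbc1 (462 CPM) made up most of the T cell list and is known to be transcribed in NK cells. Among B cell genes, Pax5 had no UMI in any mouse, and the most abundant was Ighm (160 CPM). The high cells thus held the NK cell markers, but at lower levels than the low cells, where all 10 markers tested were higher (median log2 fold change of high against low cells -0.79, beside -0.19 for all genes). With TMM scaling or DESeq2 8 of the 10 were lower. Of 7 ILC1 genes tested, 2 were higher in high cells, 1 was lower and 4 did not pass (median 0.25). With cycling cells left out 4 were higher and 1 lower. Itga1 (CD49a) was at 167 CPM in high and 63.8 CPM in low cells, Inpp4b was higher by 1.24 on the log2 scale, and Il7r was at 7.62 CPM in high and 43.7 CPM in low cells.

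The level of the 3 granzymes varied widely among the members. The high cells had a median of 140 UMIs of the 3 together (quartiles 27 and 380, highest 9189), and 281 of the 504 cells (55.8%) had 100 or more. At the limit itself, 22 cells had exactly 5 UMIs and 23 NK cells had exactly 4. These cells were alike in depth, with medians of 10874 and 11002 UMIs, and 27.3% and 30.4% of them had a UMI of the cycling genes Mki67, Top2a or Cdk1. Most low cells were far from the limit, with 697 of the 1019 at 0.

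Gzmc was the main granzyme of the set. It supplied 86.0% of the UMIs that the rule counted in WT and 69.4% in CaMKK2 KO cells, Gzmf 7.12% and 21.8%, and Gzmd 6.90% and 8.82%, and 503 of the 504 cells had a Gzmc UMI. In contrast, 286 cells (56.7%) had no UMI of Gzmd, Gzme, Gzmf or Gzmg, 90 had one of these genes and 128 had 2 or more. In 24 cells Gzmd and Gzmf together exceeded Gzmc.

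By mouse, Gzmc stood at 10357, 11618, 17105 and 13337 CPM in WT high cells and at 7712, 15774, 9526 and 12118 CPM in CaMKK2 KO high cells. The groups overlapped, and the highest mouse had about as much in each. Gzmf was far more uneven, at 2212, 662, 1756 and 574 CPM in WT mice and at 14.4, 3790, 4388 and 0 CPM in CaMKK2 KO mice. CaMKK2 KO mice 2 and 3 therefore carried nearly all of that genotype's Gzmf, whereas mouse 1 had 43 high cells and very little. Gzmd was likewise higher in CaMKK2 KO mice 2 and 3, at 2470 and 1401 CPM against 340 and 227 CPM in mice 1 and 4. In WT it ranged from 749 to 1721 CPM and was lowest in mouse 1, where Gzmf was highest. A Gzmd UMI was found in 27.1% of WT and 31.6% of CaMKK2 KO high cells, against 2.16% and 2.78% of C1q-high macrophages and microglia, which should lack the gene. The median depth of those macrophages was 16272.5 and 16290 UMIs, against 21000 and 19750 in the high cells. A Gzmc UMI was seen in 20.4% and 16.5% of the same macrophages, and 0.169% and 0.242% of them reached 5 UMIs of the 3 granzymes. These shares were not used to correct any count, and the part of background in cells with few Gzmc UMIs was not tested.

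**Figure D1:**
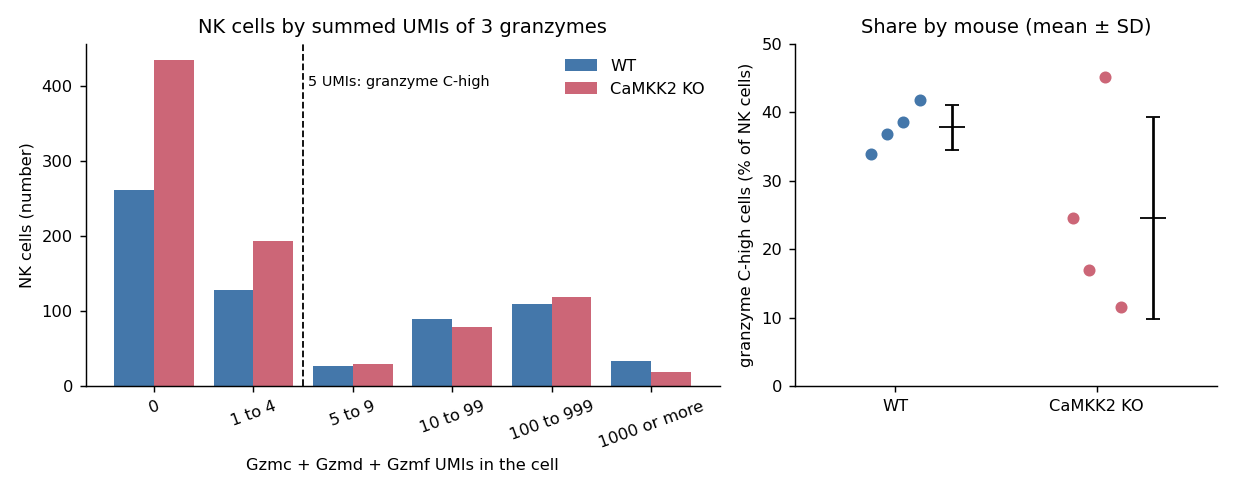
Left, number of NK cells by their summed Gzmc, Gzmd and Gzmf UMIs in WT (blue) and CaMKK2 KO (red), with a dashed line at the limit of 5 UMIs. Right, granzyme C-high cells as a percentage of NK cells in each mouse (points) with mean and SD (black, n = 4 per genotype). 697 of 1523 NK cells had no UMI of the 3 genes, and the CaMKK2 KO mice ranged from 11.6% to 45.1% around a mean of 24.6%.

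Other genes changed with the level of the 3 granzymes, as shown by summing all NK cells in 6 bins of the summed count. Ccl5, a chemokine that NK cells store and release, was at 9788 CPM in cells with 0 UMIs, 4901 CPM at 1 to 4, 665 CPM at 5 to 9, 270 CPM at 10 to 99 and 54.1 CPM in the 229 cells of the next bin, which starts at 100. Ccl5 was not compared between cells with 4 and with 5 UMIs, so these bins cannot place a step at the limit. The 52 cells of the highest bin were at 81.2 CPM, above the bin before. Klf2, a transcription factor that keeps lymphocytes quiescent and in circulation, went from 548 CPM at 0 to 49.8 CPM at 5 to 9 and 18.3 CPM in the highest bin. Gzme and Gzmg were absent from the 55 cells at 5 to 9 UMIs and reached 1884 and 1004 CPM in the highest bin. Gzmb, by comparison, lay between 2100 and 3357 CPM in all 6 bins, and Gzma went from 10262 to 2217 CPM. The bins pool the genotypes in unequal shares, with 262 WT and 435 CaMKK2 KO cells at 0 UMIs and 33 and 19 in the highest bin, and both genes differed by genotype in the high cells, as given below. The median depth went up over the same bins from 5515 to 42023.5 UMIs, and the share of cells with a cycling UMI from 15.9% to 82.7%. The part of depth, of cycling and of the genotype mix in these gradients was not tested.

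**Figure D2:**
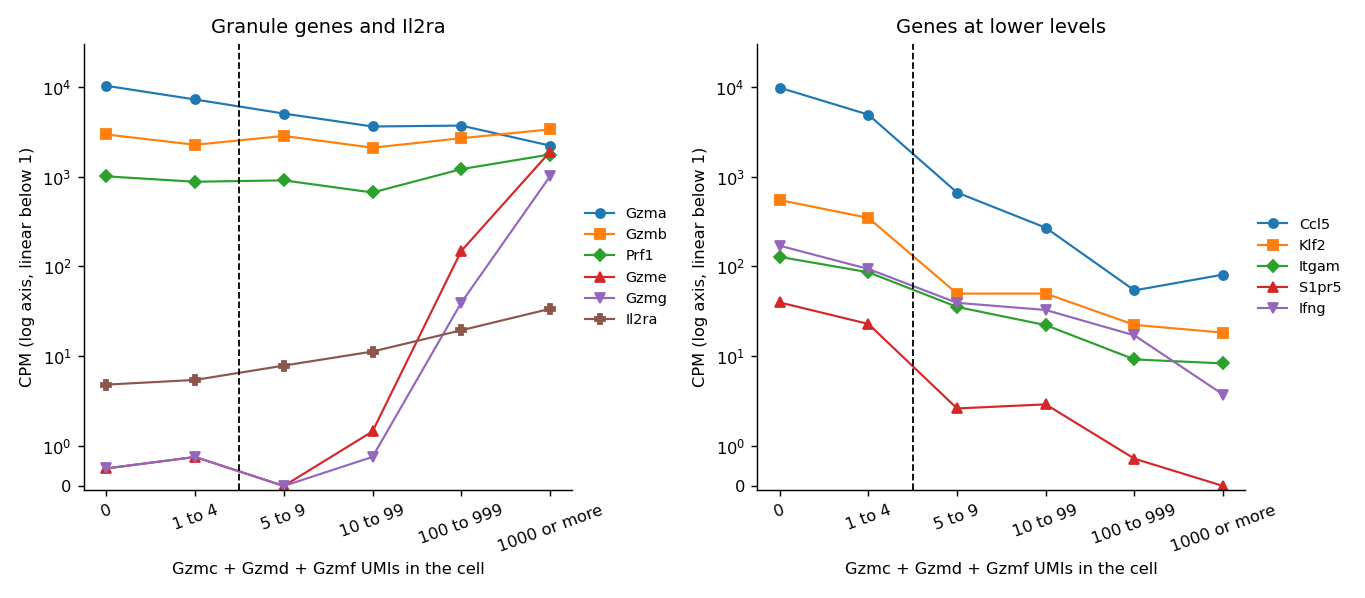
Level of named genes in NK cells summed by their Gzmc, Gzmd and Gzmf UMIs (x axis), in CPM (y axis, logarithmic above 1 and linear below), for all NK cells of both genotypes, which are pooled in unequal shares. The dashed line is the limit of 5 UMIs. Gzmb stayed between 2100 and 3357 CPM, while Ccl5 went from 9788 to 81.2 CPM and Gzme from 0.439 to 1884 CPM.

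Within the 504 high cells, the genes whose level most followed the summed granzyme level were Gzme (Spearman's rho 0.54), Myo10 (0.53), Pglyrp1 (0.51), Klrg1 (0.46), Gapdh (0.44), Capg (0.43), Sema6d (0.43), AA467197 (0.43), Alox5 (0.40) and Thy1 (0.40), out of 8732 genes found in 10% or more of the cells. Myo10 is an unconventional myosin, Capg an actin-capping protein, Alox5 the first enzyme of leukotriene synthesis and Klrg1 an inhibitory receptor of mature NK cells. The lowest values belonged to the activating receptor genes Klrk1 (-0.42) and Klrb1c (-0.41) and to Gimap4 (-0.41), Tpt1 (-0.40), Ptprc (-0.40) and Ccl5 (-0.39). Klrb1c was itself counted by the rule when the NK cells were chosen. These are descriptions across cells that share libraries, and the granzyme level per 10000 UMIs itself followed the cells' total UMIs with a rho of 0.51.

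High and low NK cells of the same mice were then compared across all genes. The fit had each mouse as a block, and the genes of the rule and its marker genes were set aside with values and no test. The classes were divided by UMIs counted in these same cells, so the fit describes how they differed and tests no treatment. Of 9802 genes tested, 1313 were higher and 2967 lower in high cells at an adjusted p under 0.05 (edgeR quasi-likelihood test, Benjamini-Hochberg adjustment), which is 13.4% and 30.3% of the genes tested and 43.7% together. Called or not, 7.11% of the genes were higher and 17.1% lower in the high cells of every mouse. The split depends on scaling. Scaled to total UMIs, the median log2 fold change of all genes was -0.19, whereas with TMM scaling the median was -0.03 with 1960 genes higher and 1894 lower (50.9% higher against 30.7%), and with DESeq2 it was -0.02 with 1569 higher and 1393 lower. None of the 4280 genes called changed its direction under either scaling. Both scalings shift all genes by a similar amount, so only genes with small differences could have turned.

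The rule's own granzymes were higher by construction, and 2 genes of the same cluster that it did not use moved with them. Gzme was at 238, 274, 559 and 344 CPM in WT high cells and 20.3, 673, 703 and 39.3 CPM in CaMKK2 KO high cells. The low cells of all 8 mice together had 3 Gzme UMIs, so that the pooled level was 1018-fold higher in high cells (95% interval for counting error 348 to 4939). Gzmg was at 169 ± 180 CPM (SD, n = 8 mice) in high and 0.488 ± 0.819 CPM in low cells and was higher in 7 of 8 mice (adjusted p = 1.72e-13, edgeR). Gzmb, which lies next to Gzmc, differed far less, at 3145 ± 1840 CPM in high and 2572 ± 1793 CPM in low cells, 1.34-fold higher and higher in all 8 mice (adjusted p = 0.00223, edgeR). With cells that held a cycling UMI left out its adjusted p was 0.0726, and without the mouse as a block it was 0.266. Gzma was 2.66-fold lower in high cells (3739 ± 2440 against 8970 ± 4307 CPM) and lower in all 8 mice. Gzmk, which marks less differentiated cytotoxic cells, was 4.38-fold lower at very low levels. Of the 6 members of the granzyme and perforin list that were tested, 3 were higher, 2 lower and 1 (Gzmm) did not pass. The marker genes given with the rule had modest differences, with Prf1 at 1217 CPM in high and 903 CPM in low cells, Xcl1, a chemokine for cross-presenting dendritic cells, at 974 and 759 CPM, and Car2, a carbonic anhydrase, at 536 and 371 CPM.

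Other granule genes were mixed, with 3 of 14 tested higher and 6 lower (median log2 fold change -0.15, beside -0.19 for all genes). With TMM scaling or DESeq2 3 were higher and 4 lower. The higher ones were Serpinb6a, a protease inhibitor (log2 fold change 1.13), Cst7, an inhibitor of the cathepsins that mature granzymes (0.77), and Rab27a, needed for granule docking (0.55). Among the lower ones were Nkg7 (-0.76), Ctsc (-0.54), the cathepsin that removes the granzyme propeptide, and Serpinb9 (-0.38), the inhibitor of granzyme B.

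Chemokines and cytokines gave the most negative median of the lists with 5 or more tested members (-1.30), with 10 of 14 members lower. With TMM scaling or DESeq2 8 were lower. Ccl5 was at 186, 118, 92.5 and 119 CPM in WT mice and 206, 94.5, 123 and 135 CPM in CaMKK2 KO high cells, and at 3156 to 5666 CPM and 5105 to 16496 CPM in the low cells of the same genotypes. No high library came near a low one, and the level was 48.1-fold lower (log2 fold change -5.59, SE 0.24, adjusted p = 4.78e-13, edgeR). Ccl4 and Ccl3, chemokines that activated NK cells secrete, were 14.2-fold and 13.7-fold lower. Ifng, the main cytokine of NK cells, was at 20.5 ± 13.4 CPM in high and 142 ± 81.7 CPM in low cells (7.02-fold lower, lower in all 8 mice). Fasl, a death ligand, was lower by a log2 fold change of -1.32. Ccl1, the ligand of CCR8, went the other way, with 103, 75.5, 23.3 and 52.0 CPM in WT high cells and 15.5, 0.974, 119.5 and 0 CPM in CaMKK2 KO high cells, against at most 3.58 CPM in any low library. It was higher in 7 of 8 mice and absent from CaMKK2 KO mouse 4.

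Genes of circulation and homing were lower as a group, with 16 of 22 lower and 2 higher (median -1.02). S1pr5 and S1pr1, the sphingosine-1-phosphate receptors by which NK and T cells leave tissue, were 17.9-fold and 18.9-fold lower. Klf2, which drives S1pr1, was at 16.8 to 46.8 CPM in the high libraries and 115 to 869 CPM in the low ones, 14.3-fold lower with no overlap. The integrin genes Itgam (CD11b) and Itga2 (CD49b), which mark mature circulating NK cells, were lower by log2 fold changes of -3.23 and -2.63, and Cxcr4, the receptor that holds cells in bone marrow, by -2.58. The exceptions were Itga1 (CD49a), which binds collagen and marks tissue-resident cells, at a log2 fold change of 1.41 and higher in 7 of 8 mice, and Ccr2 at 0.20, whose call was lost without WT mouse 2 or any 1 of the CaMKK2 KO mice (adjusted p of up to 0.109).

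**Figure D3:**
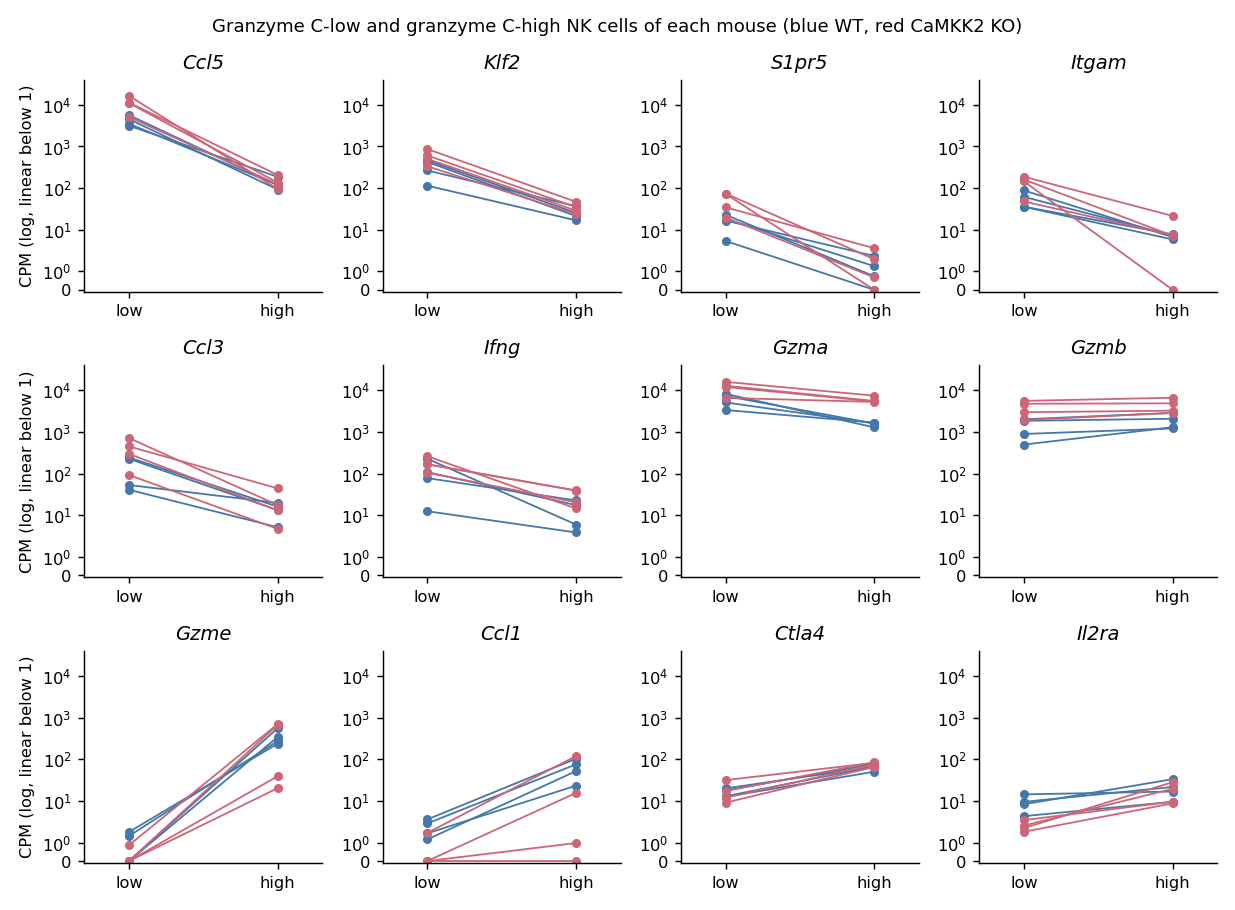
Level of 12 genes in granzyme C-low and granzyme C-high NK cells of each mouse, in CPM (y axis, logarithmic above 1 and linear below). A line joins the classes of 1 mouse (4 WT in blue, 4 CaMKK2 KO in red). Ccl5, Klf2, S1pr5, Itgam, Ccl3, Ifng and Gzma were lower in the high cells of all 8 mice, and Gzmb, Gzme, Ctla4 and Il2ra were higher in all 8.

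Receptors that switch NK cells on were mostly lower, with 12 of 16 lower and 1 higher (median -0.70). Klrk1 (NKG2D) was lower by a log2 fold change of -0.95, Klrc2 (NKG2C) by -1.72 and Klra4, a Ly49 receptor, by -1.18, whereas Slamf7 was higher at 0.40, a call that was lost without CaMKK2 KO mouse 4, WT mouse 1, WT mouse 3 or WT mouse 4 (adjusted p of up to 0.0995). Inhibitory receptors divided evenly, with 5 higher, 6 lower and 5 that did not pass. The higher ones included Ctla4, at 71.1 ± 11.2 CPM in high and 16.6 ± 7.03 CPM in low cells, and Lag3 (log2 fold change 1.39), both checkpoint receptors and higher in all 8 mice. Cd96 was higher too (0.66), and Klra9 (-1.19) and Klrc1 (-1.04) were among the lower ones. Klrg1, a receptor of mature NK cells, was higher by 0.90, unlike the maturation markers Itgam and Itga2. Havcr2 (TIM-3) was higher by 1.08. Klrg1 lost its call without CaMKK2 KO mouse 3 or WT mouse 3, and Havcr2 without CaMKK2 KO mouse 2 or 3. Both lost it without cycling cells and with limma. Tnfrsf9 (4-1BB), a costimulatory receptor that appears on activated NK cells, was at 249 ± 115 CPM in high and 109 ± 45.1 CPM in low cells, while 3 other TNF receptor family members were lower and 2 did not pass.

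Transcription factors of NK cell maturation were lower in 14 of 20 cases and higher in 1 (median -0.77). With TMM scaling or after thinning 12 were lower, and with DESeq2 10. Zeb2 (-2.38) and Prdm1 (-1.76), which drive terminal maturation, and Tcf7 (-0.92), a factor of immature and memory-like cells, were all lower in every mouse. Tbx21 (T-bet) differed by -0.82 and Eomes by -0.24. The call for Eomes was lost without CaMKK2 KO mouse 2, WT mouse 2, WT mouse 3 or WT mouse 4 (adjusted p of up to 0.0657). It was also lost with TMM scaling, with DESeq2 and after thinning, among others (up to 0.611). Ikzf2 (Helios) was the one member that was higher, by 0.50, and passed in 3 of the 8 fits that each left out a mouse (without WT mouse 1, WT mouse 4 or CaMKK2 KO mouse 3).

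Among genes of IL-2, IL-15 and STAT5 signalling, 16 of 23 were lower and 2 higher (median -0.69). With TMM scaling 14 were lower and 3 higher, and with DESeq2 13 were lower and 2 higher. Il2ra (CD25), the high-affinity subunit of the IL-2 receptor, was at 16.8, 9.53, 33.3 and 21.6 CPM in WT high cells and 9.57, 28.3, 19.5 and 8.73 CPM in CaMKK2 KO high cells. In each mouse this was above the low cells of the same mouse, which ranged over the mice from 1.82 to 14.3 CPM, and the log2 fold change was 1.82. Il12rb1 was the other higher gene (0.52), and lost its call with the limit set per 10000 UMIs, without cycling cells and after thinning (adjusted p of up to 0.379). In contrast the receptors for IL-18 and IL-12, Il18r1 (-2.03), Il18rap (-1.84) and Il12rb2 (-1.99), the IL-12 receptor's transcription factor Stat4 (-1.37) and the STAT5 targets Bcl2 (-1.33), Pim1 (-1.59) and Socs3 (-1.60) were lower.

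Of 21 genes of nutrient uptake, glycolysis and hypoxia, 12 were higher, 2 lower and 7 did not pass (median 0.70), with Pgk1 at 405 ± 57.5 against 155 ± 20.4 CPM, Gapdh at 1616 ± 187 against 750 ± 125 CPM and Ldha higher by a log2 fold change of 1.09. The lower ones were transporter genes, Slc3a2 (-0.58) and Slc2a3 (-0.57), and the call for Slc2a3 was lost without CaMKK2 KO mouse 1 or CaMKK2 KO mouse 3, with TMM scaling, with DESeq2, without cycling cells and after thinning (adjusted p of up to 0.253). Ribosome biogenesis genes were higher in 12 of 15 cases and lower in none (median 0.49), for example Npm1 (nucleophosmin, 0.71) and Nop58 (0.79). After thinning or without cycling cells 9 of these 15 were higher.

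All 20 cell cycle genes were higher (median 2.35), led by the cyclins Ccna2 (log2 fold change 3.91) and Ccnb1 (3.87). Without 1 mouse Ccna2 ranged from 3.52 to 4.97 and Ccnb1 from 3.22 to 5.03, both highest without CaMKK2 KO mouse 2 and lowest without CaMKK2 KO mouse 4. Mki67 was at 160 ± 68.1 CPM in high and 23.9 ± 26.2 CPM in low cells. The share of cells with a UMI of Mki67, Top2a or Cdk1 was 56.4% ± 3.68 in high and 15.9% ± 2.68 in low cells (SD, n = 8 mice). Because deeper cells show such a UMI more often, each cell was also thinned to 4000 UMIs, which left out 2 high and 161 low cells with less. The shares were then 29.2% ± 4.22 and 10.6% ± 2.79, and the high cells had the larger share in 8 of 8 mice. With all cells that held such a UMI left out, 2673 of the genes tested were called, and Hmgb2 turned from 0.82 to -0.69 and Pcna from 0.71 to -0.08, while Ccl5 stayed at -4.83 and Klf2 at -3.64.

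**Figure D4:**
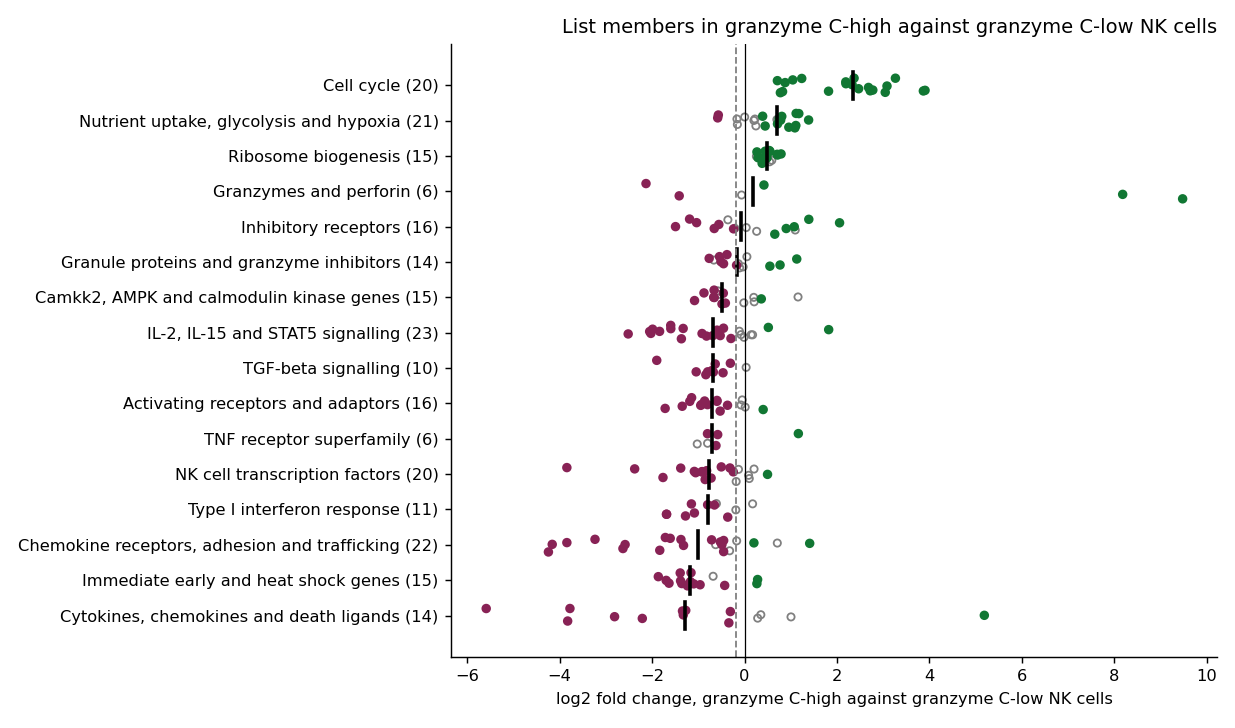
Log2 fold change (x axis) of each tested member of 16 gene lists in granzyme C-high against granzyme C-low NK cells, with the number of members tested in brackets. Filled points had an adjusted p under 0.05 (green higher, purple lower), open points did not, black bars are list medians, and the dashed line is the median of all genes (-0.19). The cell cycle list has the highest median (2.35), and cytokines, chemokines and death ligands the lowest (-1.30).

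Members of several response lists were lower more often than higher in the high cells. Of all genes tested, 30.3% were lower and 13.4% higher under the same scaling. Type I interferon response genes were lower in 8 of 11 cases and higher in none (median -0.80), with Ifit1 at -1.69 and Irf7 at -1.28. With TMM scaling 6 were lower and 1 higher, and with DESeq2 or after thinning to 4000 UMIs 5 were lower. Immediate early genes, which are also induced when tissue is dissociated, followed, with Fos (-1.63), Jun (-1.23) and Nr4a1 (-1.38) lower in every mouse. In the list of immediate early and heat shock genes 12 of 15 were lower and 2, the chaperones Hspa8 and Hsp90aa1, were higher. Hsp90aa1 lost its call without WT mouse 1, WT mouse 2 or CaMKK2 KO mouse 1 (adjusted p of up to 0.0809), and both lost it without cycling cells and without the mouse as a block (up to 0.489 for Hsp90aa1 and 0.120 for Hspa8). Of 10 TGF-beta signalling genes 9 were lower and none higher (median -0.69), among them Smad3 (-1.90) and Smad7 (-1.05). With TMM scaling or DESeq2 6 were lower, and after thinning 5. Among 15 genes of the Camkk2, AMPK and calmodulin kinase list 8 were lower and 1, Calm3 (0.36), was higher, with Camk2d at -1.08 and Calm2 at -0.66. With TMM scaling 4 of these 15 were lower, and Calm3 lost its call without cycling cells (adjusted p = 0.0828) and without outlying cells. Camkk2 itself was at 10.53 ± 7.44 CPM in high and 16.01 ± 3.72 CPM in low cells and did not pass (adjusted p = 0.0975, edgeR).

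By the size of the difference, the 10 highest genes that moved the same way in all 8 mice were Gzme, Kif2c, Alox5, Scin, Fam178b, Ccna2, Ccnb1, Cenpp, Avil and Sema6d. Kif2c, Ccna2, Ccnb1 and Cenpp act in mitosis, and Scin and Avil are actin-severing proteins of the gelsolin family. Most had few UMIs in low cells. Alox5 had 91 UMIs in high and 2 in low cells, a ratio of 29.0 per UMI sequenced (95% interval for counting error 7.80 to 243), and Scin had 100 and 2. Avil (32.8 ± 12.4 against 2.69 ± 3.44 CPM) and Sema6d, a semaphorin (64.3 ± 32.8 against 4.92 ± 5.30 CPM), had more UMIs and were 13.2-fold and 12.6-fold higher. The log2 fold change of Sema6d was 3.65, and 3.05 without CaMKK2 KO mouse 2. The 10 lowest were Cym, Cma1, Ccl5, Kcnj8, S1pr1, S1pr5, Angpt1, Mcam, Xylt1 and Cmklr1. Cma1, a chymase best known from mast cells, was at 0.726 ± 0.717 CPM in high and 58.2 ± 50.1 CPM in low cells, and Kcnj8, a potassium channel, at 1.07 ± 1.21 and 29.5 ± 16.7 CPM. Cym had no UMI in any high library and 61 in the low ones, at least 31.9-fold lower against a floor of 3 UMIs over all high cells. Cmklr1, the chemerin receptor, was 15.0-fold lower (log2 fold change -3.91, and -4.71 without CaMKK2 KO mouse 3).

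The other marker lists were compared in the same way, beside the ILC1 genes given above. The macrophage and microglia list (13 genes, most abundant Cd74) summed to 497, 955, 1842 and 592 CPM in WT mice and 634, 905, 356 and 332 CPM in CaMKK2 KO high cells, and to 893 to 3397 CPM in the low cells, with 4 of the 8 genes tested lower. No gene of that list was at 0. Of the 5 T cell genes tested none passed in either direction, and Trdc and Trdv4, of the gamma-delta list, were both lower, with Sox13 at 0. Plac8, listed as a monocyte gene, was higher (625 against 374 CPM), while Ly6c2 and Chil3 of the same list were lower. Ighm was at 160 ± 83.3 CPM in high and 71.4 ± 33.6 CPM in low cells, while Pax5, a defining B cell gene, was at 0 in the high cells. Dendritic cell genes summed to at most 17.3 CPM in any high library, with Ccr7 the most abundant, and brain and tumor cell genes to at most 30.4 CPM, with Mbp the most abundant and Sox2 and Snap25 at 0.

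The study asked how loss of Camkk2 changes the leukocytes of these tumors, and the number of granzyme C-high cells was compared first. They made up 34.0%, 36.9%, 38.6% and 41.8% of NK cells in the WT mice and 24.6%, 17.0%, 45.1% and 11.6% in the CaMKK2 KO mice. CaMKK2 KO mice 1, 2 and 4 lay below every WT mouse and mouse 3 above them all. The means were 37.8% ± 3.27 and 24.6% ± 14.7 (SD, n = 4 mice each), a difference of -13.3 percentage points that did not pass a two-sided exact permutation test (p = 0.143, smallest possible 0.0286). Without CaMKK2 KO mouse 3 the difference was -20.1 points (exact p = 0.0571, the smallest that 4 against 3 mice can give), and without mouse 4 it was -8.93 points (exact permutation p = 0.286). As a share of all cells of the mouse that passed the quality limits, high cells were 4.04% ± 0.824 in WT and 3.57% ± 2.91 in CaMKK2 KO mice (exact permutation p = 0.771). That difference of -0.473 points became -1.85 without CaMKK2 KO mouse 3 and 0.420 without CaMKK2 KO mouse 4, so its direction rests on 1 mouse. All NK cells, the denominator of the first comparison, made up 10.6% ± 1.33 of all cells in WT mice, against 13.1% ± 4.13 in the CaMKK2 KO group (exact permutation p = 0.314). That difference of 2.54 points was 1.23 without CaMKK2 KO mouse 3. Without CaMKK2 KO mouse 4 it was 4.36 (exact permutation p = 0.0571, the smallest possible there).

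Within the high cells, Camkk2 was read first. It stood at 23.2, 12.5, 10.7 and 18.1 CPM in WT mice and at 5.98, 8.77, 5.05 and 0 CPM in CaMKK2 KO mice, so the groups did not overlap, but the difference did not pass (log2 fold change -1.41, adjusted p = 0.0610, edgeR). In the low cells of the same mice the means were 15.9 and 16.1 CPM. The counts are tags from transcript 3′ ends and the deleted part of the gene is not given in the sources used here, so these levels check neither label. Of 8874 genes tested in the high cells, 131 were higher (1.48%) and 99 lower (1.12%) in CaMKK2 KO (2.59% together), and for 204 of the 230 the mice of the genotypes did not overlap, beside 8.99% of all genes tested (4.83% with CaMKK2 KO higher and 4.16% with it lower). The 230 became 134 without WT mouse 4, 65 without cycling cells and 524 with genes of 1 or more UMIs.

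Gzma, Gzmb and Prf1 were higher in the CaMKK2 KO high cells. Gzma was at 1683, 1598, 1288 and 1616 CPM in WT mice and 5415, 7454, 5286 and 5570 CPM in CaMKK2 KO mice, with a wide gap between the groups. It was 3.84-fold higher (log2 fold change 1.94, SE 0.11, adjusted p = 6.86e-09, edgeR) and passed without any single mouse. Prf1 was 1.56-fold higher (951 ± 125 against 1484 ± 351 CPM), Gzmb 2.35-fold higher with overlapping groups (1872 ± 778 against 4418 ± 1725 CPM) and Nkg7, a granule membrane protein, 1.54-fold higher. Gzmb lost its call without WT mouse 1, WT mouse 4 or CaMKK2 KO mouse 2 (adjusted p of up to 0.0552) and with DESeq2, and Prf1 without WT mouse 4 or CaMKK2 KO mouse 2 (up to 0.0722) and without cycling cells (0.0911). In all, 3 of the 5 tested genes of the granzyme and perforin list were higher, where 1.48% of all genes were. Gzme and Gzmg did not pass, at 354 ± 144 against 359 ± 380 CPM for Gzme. Of 14 granule proteins and granzyme inhibitors tested, 2 (Nkg7 and Ctsc) were higher, 1 (Serpinb9b) was lower and 11 did not pass (median 0.16). Ctsc was at 0.71 on the log2 scale, and Serpinb9b, an inhibitor of granzyme family proteases, was at 51.6 ± 25.0 CPM in WT mice and 11.4 ± 9.81 CPM in CaMKK2 KO mice. Ctsc lost its call when either WT mouse 2 or mouse 2 of the CaMKK2 KO group was left out, and without cycling cells (adjusted p = 0.520), while Serpinb9b, whose groups overlapped, kept it in 1 of the 8 fits that each left out a mouse, the one without WT mouse 4 (adjusted p of up to 0.113 in the others). The differences for Gzma, Gzmb and Prf1 had the same direction in low cells, with log2 fold changes of 0.98, 1.53 and 1.32, of which that of Prf1 passed (adjusted p = 0.0313, edgeR).

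Some receptors of inhibition and costimulation differed as well. Of 15 inhibitory receptors tested, 3 were higher in CaMKK2 KO high cells, where 1.48% of all genes were. Lag3 was at 19.4, 29.3, 26.0 and 31.5 CPM in WT mice and 69.4, 92.5, 79.8 and 78.6 CPM in CaMKK2 KO mice, 2.94-fold higher with no overlap (adjusted p = 4.41e-05, edgeR). Havcr2 (TIM-3) was higher at low levels (5.45 ± 1.86 against 18.8 ± 10.9 CPM), mostly through CaMKK2 KO mouse 2, and without that mouse, WT mouse 2 or WT mouse 4 it did not pass (adjusted p of up to 0.0795). Klra7, a Ly49 receptor, was 1.76-fold higher and lost its call without WT mouse 4 (0.0512) and without cycling cells (0.292). The other 12 of the 15 inhibitory receptors tested did not pass, nor did any of the 16 activating receptors. Tnfrsf9 went down, from 403, 306, 385 and 288 CPM in WT to 142, 217, 152 and 96.0 CPM in CaMKK2 KO mice, a 2.17-fold difference that passed without any single mouse (adjusted p = 0.00171 with all mice, edgeR). Cd28, the costimulatory receptor of T cells, which the marker list holds as a T cell gene, was at 24.5, 33.0, 59.2 and 63.1 CPM in WT mice and 89.7, 101, 102 and 153 CPM in CaMKK2 KO mice. Its adjusted p was 0.0100 with all cells and 0.248 without cycling cells. Trbc1 of the same list was 1.37-fold higher with all mice and lost its call without WT mouse 1, WT mouse 3, WT mouse 4, CaMKK2 KO mouse 2 or CaMKK2 KO mouse 3 (adjusted p of up to 0.0699). The summed T cell list was at 589 to 685 CPM in WT mice and 739 to 1096 CPM in CaMKK2 KO mice and was mostly Trbc1, while the rule itself limited Cd3d, Cd3e and Trac. The part of T cell RNA in these differences was not tested. Of the monocyte and neutrophil list 2 of 3 genes tested were higher in CaMKK2 KO high cells (median log2 fold change 1.40), and its 7 genes summed to 362, 480, 604 and 580 CPM by mouse in WT against 1104, 1200, 798 and 939 CPM. Plac8, the most abundant, was 1.76-fold higher (log2 fold change 0.82) and lost its call without cycling cells (adjusted p = 0.0667). Its log2 fold change was at least 0.656 in all 20 alternatives run. Ly6c2 was 3.97-fold higher with overlapping groups (log2 fold change 1.99, and 1.199 without CaMKK2 KO mouse 2 and 0.65 without cycling cells), and lost its call without WT mouse 1, 2 or 3, without CaMKK2 KO mouse 2, with DESeq2 and with C1q under 5 UMIs, among others. The part of monocyte RNA in the genotype differences was not tested.

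Nfkbia and Icam1, which no list holds, are described because they passed the interaction test given below. Nfkbia, which encodes the inhibitor that NF-kB induces against itself, was at 371, 138, 262 and 295 CPM in WT mice and 86.1, 120, 70.7 and 87.3 CPM in CaMKK2 KO high cells (2.94-fold lower, adjusted p = 0.00179, edgeR). Icam1, an adhesion ligand, was 2.23-fold lower (88.0 ± 23.8 against 39.0 ± 12.6 CPM) and lost its call without CaMKK2 KO mouse 3 (adjusted p = 0.0601). Cxcr4 was at 54.2, 24.9, 28.0 and 40.9 CPM in WT mice and 8.37, 11.7, 8.42 and 21.8 CPM in CaMKK2 KO mice, 3.56-fold lower with no overlap. Cd83, a surface protein of activated lymphocytes and dendritic cells, was at 50.4, 6.60, 32.6 and 25.7 CPM in WT mice and 0, 1.95, 1.68 and 0 CPM in CaMKK2 KO mice. Ltb (lymphotoxin beta) was 1.65-fold lower with all mice, and kept its call without WT mouse 1, CaMKK2 KO mouse 1 or CaMKK2 KO mouse 2.

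Apart from these, single members of the lists passed. Id2, a factor needed by all innate lymphoid cells, was higher (log2 fold change 0.43), as was the integrin Itgal (0.68), and both passed without any single mouse, but without cycling cells Itgal was at 0.33 (adjusted p = 0.585). Smad7 (-0.64) was lower and lost its call without CaMKK2 KO mouse 2 (adjusted p = 0.0558). The heat shock gene Hspa1b (-2.03) was lower and lost it without WT mouse 4 or CaMKK2 KO mouse 3 (up to 0.113), the STAT5 target Cish (-0.83) without WT mouse 2, CaMKK2 KO mouse 2 or CaMKK2 KO mouse 3 (up to 0.107) and Npm1 (-0.38) without WT mouse 2, 3 or 4 (up to 0.0755). Calm3, Irf7 and Jund were higher and Il7r and Mcm6 lower with all mice, but passed in 1, 2, 2, 2 and 3 of the 8 fits that each left out a mouse. None of the 22 glycolysis genes and 1 of 20 cell cycle genes passed, and the thinned share of cells with a cycling UMI was 28.5% ± 4.33 in WT and 29.9% ± 4.63 in CaMKK2 KO high cells (exact permutation p = 0.600).

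**Figure D5:**
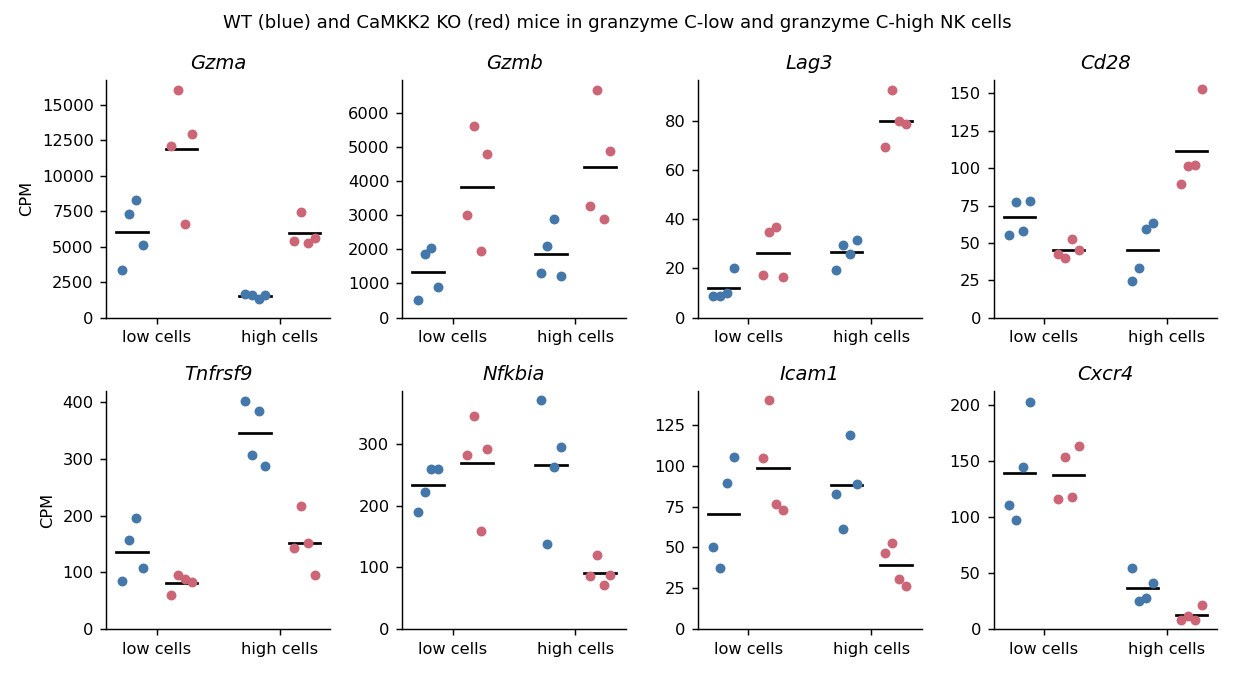
Level of 8 genes in CPM (y axis, from 0) in granzyme C-low and granzyme C-high NK cells of WT (blue) and CaMKK2 KO (red) mice, with 1 point per mouse and the mean as a black line (n = 4). In high cells Gzma, Lag3 and Cd28 were higher and Tnfrsf9, Nfkbia, Icam1 and Cxcr4 lower in CaMKK2 KO with no overlap, while in low cells the mean of Nfkbia was 233 CPM in WT mice and 270 CPM in CaMKK2 KO.

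The genes with the most extreme genotype differences in high cells were mostly not known NK cell effector genes, and many differed as much in the low cells. Wls, which carries Wnt proteins to the surface, was at 36.2, 30.8, 18.0 and 23.4 CPM in WT mice and 413, 385, 404 and 340 CPM in CaMKK2 KO high cells (14.9-fold higher), and 15.6-fold higher in low cells. Eif3j2 was 14.8-fold higher and its near-copy Eif3j1 6.51-fold lower, each by a gap of several fold between the groups. These 2 genes encode nearly the same translation factor, so counts could be split between them and both are uncertain. The interferon-inducible genes Ifi44l and Ifi202b and the ubiquitin ligase gene Trim16 had no UMI in the WT high cells and 111, 99 and 88 UMIs in the CaMKK2 KO high cells, at least 39.1-fold, 34.9-fold and 31.0-fold higher against a floor of 3 UMIs over all WT high cells. Zfp990 had 1 UMI in WT and 256 in CaMKK2 KO. Ly6a (Sca-1) was 5.68-fold, Ifi44 5.33-fold, Emp1 7.36-fold and Kcnc1 5.02-fold higher. Emp1 lost its call without cycling cells (adjusted p = 0.0911) and its log2 fold change of 2.88 was 3.49 without WT mouse 4, and Kcnc1 lost its call with limma (0.238). Among 11 tested genes of the interferon list 1 (Irf7) was higher and 10 did not pass.

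At the other end were Ccdc184 (50.5 ± 25.1 against 0.496 ± 0.573 CPM), Ifi213, Cd83, Erdr1, Apoe, Mid1, Eif3j1, Ccnd1 (cyclin D1), Zbtb46 and Utf1. Ifi213 had 85 UMIs in WT and 3 in CaMKK2 KO, and Erdr1 68 and 3. Mid1 lost its call without CaMKK2 KO mouse 3 (adjusted p = 0.153), and Utf1 passed in 1 of 6 fits that left out a mouse. Apoe, a lipid carrier made mainly by macrophages, was at 194, 229, 201 and 251 CPM in WT mice and 21.5, 15.6, 17.8 and 17.5 CPM in CaMKK2 KO high cells, 12.1-fold lower, and 14.0-fold lower in low cells. It was the one of 6 tested macrophage genes that passed, and the macrophage list summed to a median of 774 CPM in WT mice and 495 CPM in CaMKK2 KO high cells. The part of free macrophage RNA in this difference was not tested. Ighm was 2.63-fold lower in CaMKK2 KO high cells (234 ± 27.9 against 84.9 ± 22.7 CPM). In low cells, 67 of 8263 genes were called (0.811%, with 0.508% higher and 0.303% lower), and Ifi44l, Ifi202b, Trim16, Zfp990, Wls, Eif3j2, Emp1, Ly6a and Ifi44 were higher and Ifi213, Apoe and Eif3j1 lower there as well. High and low cells came from the same mice and channels, so this is not independent evidence.

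Whether the high minus low difference itself depended on genotype was tested in 1 fit of all 16 libraries. Of 9802 genes 9 passed (0.0918%, with 0.0306% higher and 0.0612% lower), and 734 had an unadjusted p under 0.05. Nfkbia was about level between the classes in WT (233 CPM in low, 266 CPM in high cells) and lower in the high cells of CaMKK2 KO mice (270 and 90.98 CPM), an interaction of -1.61 on the log2 scale (SE 0.24, adjusted p = 0.00307, edgeR). Icam1 had the same pattern (-1.63), and Cxcr4 was lower in the high cells of both genotypes and more so in CaMKK2 KO (-1.69). Cd28 was the reverse, at 67.4 CPM in low and 45.0 CPM in high cells of WT and 45.2 and 111 CPM in CaMKK2 KO mice (1.79). The remaining 5 were Cmtm7 (1.31), Ctla2a (0.79), Pglyrp1 (-0.89), Cd83 (-4.09) and Mgl2 (-9.91). Cd28, Icam1 and Nfkbia passed without any single mouse. Without 1 mouse, the calls for Pglyrp1 (WT mouse 2 or CaMKK2 KO mouse 1 left out), Cmtm7 (WT mouse 2, CaMKK2 KO mouse 1 or CaMKK2 KO mouse 3), Cd83 (WT mouse 2 or CaMKK2 KO mouse 2) and Ctla2a (CaMKK2 KO mouse 1) were kept in the fits named and lost in the rest. Cxcr4 lost its call without CaMKK2 KO mouse 2 or CaMKK2 KO mouse 3 (adjusted p of up to 0.0958). It also lost it with DESeq2, limma, a limit of 10 UMIs and the limit set per 10000 UMIs (up to 0.123). Over the fits without 1 mouse the interaction of Mgl2 ranged from -12.49 to -4.87. Mgl2, a macrophage and dendritic cell lectin, had 65 UMIs in WT and 1 in CaMKK2 KO high cells and lost its call without WT mouse 3 (adjusted p = 0.830) or CaMKK2 KO mouse 2 (0.661).

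The same limit of 5 UMIs was met by 136 of 918 CD8 T cells. The share per mouse was 15.2% ± 8.03 in WT and 14.2% ± 7.62 in CaMKK2 KO (exact permutation p = 0.714). In these T cells Gzmf exceeded Gzmc in 7 of 8 mice, for example at 4669 against 2298 CPM in WT mouse 2, whereas in the NK cells Gzmc exceeded Gzmf in all 8. The T cell levels rest on 2, 28, 8 and 23 cells in the WT mice and 18, 21, 20 and 3 in the CaMKK2 KO mice.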

How the data were processed

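The deposited matrices hold raw UMI counts per gene and barcode, which the authors made with bcl2fastq 2.20, Cell Ranger 4.0.0 and STAR 2.7.5c on mm10 according to the submitters' processing notes, with hashtag counts in the same matrices. Hashtags were assigned here with Seurat 5.3.0 (HTODemux, quantile 0.99), and barcodes with the tags of more than one mouse were left out of values by mouse. Scrublet marked 11 high and 8 low cells, which were kept in the main fits. UMIs were summed by mouse and class (5 or more cells) and tested with edgeR 4.0.16 (quasi-likelihood test, genes with 50 or more UMIs, library size equal to total UMIs, Benjamini-Hochberg adjustment over all genes), with the mouse as a block for high against low cells. The 11 genes of the rule, and for high against low the 3 other marker genes, had no test. CPM (counts per 1e6 UMIs) is a gene's share of a summed library, and the SE is that of the log2 fold change. Shares were compared by two-sided exact permutation tests. High and low libraries of a mouse came from the same animal, and deviations from class means correlated at -0.011 to 0.37 within a mouse and -0.28 to 0.12 between mice over 4304 genes.

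The genes named are the 10 highest and 10 lowest called genes that moved the same way in every mouse, or did not overlap between genotypes, and called members of 27 gene lists. The cells, lists and rule were chosen with earlier results of these data known. Alternatives were TMM, DESeq2 1.42.0, limma 3.58.1 on log2(mean CPM + 10), other UMI filters and limits, thinning to 4000 UMIs, and leaving out cycling cells, doubtful cells or each mouse. Intervals cover counting error alone. Some items are not reported here.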

Additional observations from a re-analysis of the deposited data

Results flagged for a closer look

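In 13 of 122 groups of 4 mice examined, 1 mouse stood far from the other 3. Chance gives about 1 in 20 for independent groups, but these groups share the same mice, so the total was not tested. Zfp990 in WT was flagged on 1 UMI, which marks whichever mouse holds it. In CaMKK2 KO high cells mouse 2 was the highest for Gzma (7454 CPM, the nearest mouse at 5570 CPM), Nkg7 (1852 CPM), Havcr2 (35.1 CPM) and Ly6c2 (399 CPM), mouse 1 for Itgal (288 CPM) and mouse 4 for Nfkbie (48.0 CPM). In WT high cells mouse 3 was the highest for Gzmd (1721 CPM), Ccnd1 (51.9 CPM) and Zfp990 (0.666 CPM, the others at 0), mouse 2 for Trbc1 (429 CPM) and mouse 4 for Emp1 (7.59 CPM), while mouse 1 was the lowest for Ifi44 (3.87 CPM) and Xcl1 (575 CPM, the nearest mouse at 1053 CPM).

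The genotypes differed in the high minus low change by the interaction test in 9 genes. The differences on the log2 scale were 1.79 for Cd28, 1.31 for Cmtm7, 0.79 for Ctla2a, -0.89 for Pglyrp1, -1.61 for Nfkbia, -1.63 for Icam1, -1.69 for Cxcr4, -4.09 for Cd83 and -9.91 for Mgl2, the last from -12.49 to -4.87 over the fits without 1 mouse and -0.75 with limma.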

How the results depend on the processing

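The difference in the share of high cells kept its direction under all 15 alternatives run, of which the 8 that left out a mouse could not reach a p under 0.05, from -20.1 to -8.93 points with 1 mouse left out and from -14.4 to -11.6 points otherwise. The 4280 genes called between high and low cells became 2673 without cycling cells and 1942 after thinning, and 3802 to 4239 with 1 mouse left out. With no replicate block, 4177 were called. The 230 genes called between genotypes became 524 with genes of 1 or more UMIs, 113 with limma and 65 without cycling cells, and 134 (without WT mouse 4) to 199 with 1 mouse left out, with 146 without CaMKK2 KO mouse 2. The 9 interaction genes became 96 with genes of 1 or more UMIs, 4 with 200 or more UMIs, 5 with mice of 15 or more cells, 5 with DESeq2 and 5 with the limit set per 10000 UMIs, and 5 to 21 (without CaMKK2 KO mouse 3) with 1 mouse left out. Fewer cells were tested in the fits that left out cells or mice, and for the others the cause was not tested. A set of 100 genes called between high and low cells was followed through the alternatives. It left out some genes named above, among them Ctsc, Serpinb9, Klrc1, Plac8, Ly6c2, Chil3 and Trdv4. Of the 100, 88 could be tested without cycling cells, of which 74 kept their call and 12 lost it. Pcna (-0.082) and Hmgb2 (-0.69) reversed. Of 54 followed between genotypes, 40 could be tested without cycling cells, of which 19 kept their call and 21 lost it, and with limma 35 kept it and 19 lost it. Hashtag numbers name different mice in the 2 genotypes, so no pairing across genotypes was possible. CaMKK2 KO mouse 4 gave 11 high cells and 229080 UMIs, which limits what its values can show for genes of low level.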
